A study of Mus musculus with 6 samples.

Results

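The genes that encode the proteasome were examined in I1DN cells, a murine acute myeloid leukemia (AML), after treatment of the leukemic mice with AG636. Members were the protein-coding genes whose symbol starts with *Psm*, a letter from a to g and a number, without the immunoproteasome genes *Psmb8*, *Psmb9*, *Psmb10* and *Psmb11*. The rule found 46 of the 54838 genes in the deposited count table, and 44 of them had enough counts to be tested. *Psma8*, a core subunit known from testis, had 1 count over all 6 samples, and *Psme2b*, a copy of the activator gene *Psme2*, had 24 counts. Neither was tested. The rule also takes in *Psmc3ip*, which encodes a recombination factor and not a proteasome subunit. Its own values are given apart from the others, but it is counted among the members unless stated.

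I1DN leukemia was made by introducing the mutant alleles IDH1R132H, DNMT3AR882H and NrasG12D into hematopoietic stem and progenitor cells of mouse fetal liver, so the vehicle samples carry the same 3 alleles as the treated ones. Cells of an established leukemia on a C57BL/6 background were transplanted into Ptprca mice after sublethal irradiation, so that all 6 samples come from 1 tumor model in hosts that keep some blood cells of their own. AG636, an inhibitor of dihydroorotate dehydrogenase (DHODH) in pyrimidine synthesis, was given by oral gavage b.i.d. at 100 mg/kg body weight to 3 mice, and 3 mice received vehicle. The study's texts give different durations for the treatment and slightly different names for the sorted cKit-positive, CD11b-low population, and the labels give neither an age nor a duration. Cells were sorted from bone marrow and spleen, and RNA was sequenced from the 3′ ends of polyadenylated transcripts, so that the count of a gene does not scale with its length. Total counts ranged from 4634963 to 7906589 per sample, and the level that 3 counts can show lay between 0.392 and 0.637 CPM, the counts scaled to the TMM-adjusted library size. *Kit* was present in all 6 samples, between 31.8 and 46.3 CPM.

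The 26S proteasome degrades proteins that carry ubiquitin chains. Its barrel-shaped core consists of stacked rings of alpha and beta subunits, with the proteolytic sites on the inner face of the beta rings. The regulatory particle at the ends of the barrel has a base, whose ring of ATPases unfolds substrates and threads them inward, and a lid, which removes the ubiquitin chain. Dedicated chaperones build these parts and are not found in the finished particle. Myeloma and other blood cancers are treated with drugs that block the catalytic beta subunit encoded by *Psmb5*.

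Transcripts of many proteasome genes were lower with AG636 by moderate amounts, and the members with the lowest fitted values were the alpha ring chaperone *Psmg1* and the activator *Psme3*. The genes of the ATPase ring and of all 4 alpha ring chaperones lay lower in each AG636 sample than in any vehicle sample. Of the 44 members tested, 18 were lower with AG636 at an adjusted p under 0.05 and 0 were higher (quasi-likelihood test of edgeR, p adjusted by Benjamini-Hochberg over all genes tested). Over all 11092 genes tested, 11.0% were called lower and 10.3% higher by the same rule. With library size alone in place of TMM, 13 members were called lower, beside 8.23% of all genes called lower and 13.4% called higher. At an unadjusted p under 0.05 there were 27 members (61.4%), 26 of them without *Psmc3ip*, beside 37.1% of all genes tested. DESeq2 and limma-voom also called no member higher. The log2 fold changes of the members ran from -0.95 to 0.20 with a median of -0.39, beside a median of 0.03 over all genes tested. Fitted values were below 0 for 41 members, and for 39 when counts were scaled by library size alone, which moved the median of all genes to 0.12. The 3 vehicle samples lay above the 3 AG636 samples without overlap for 29 of the 44 members, beside 20.6% of all genes tested, and below them for 1 member. Without *Psmc3ip*, 17 of 43 members were called lower, 40 had fitted values below 0, 28 lay lower without overlap and the median was -0.38. The summed level of the 46 members was 10640, 10068 and 9872 CPM with vehicle and 8072, 8491 and 7569 CPM with AG636. These groups did not overlap, and the mean with AG636 was 0.789 of that with vehicle.

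The number of called members depended on single samples. It was 3 of 18 without AG636 replicate 3, 9 without AG636 replicate 1, 9 without vehicle replicate 2 and 11 without vehicle replicate 1. Calls over all genes also fell in these fits, to 4.03%, 5.54%, 6.10% and 6.18% called lower in the same order. The 3 that were called without AG636 replicate 3 were *Psmd3*, *Psmd7* and *Psme3*. The median log2 fold change of the members was then -0.27 and stayed below 0 in each of the 6 leave-one-out fits, with a lowest value of -0.45. AG636 replicate 3 had the lowest proteasome levels of its group, with a median log2 deviation of -0.10 from the group mean, beside 0.09 in AG636 replicate 2 and 0.00 in AG636 replicate 1. In the vehicle group these deviations were 0.07, -0.05 and -0.01.

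**Figure D1:**
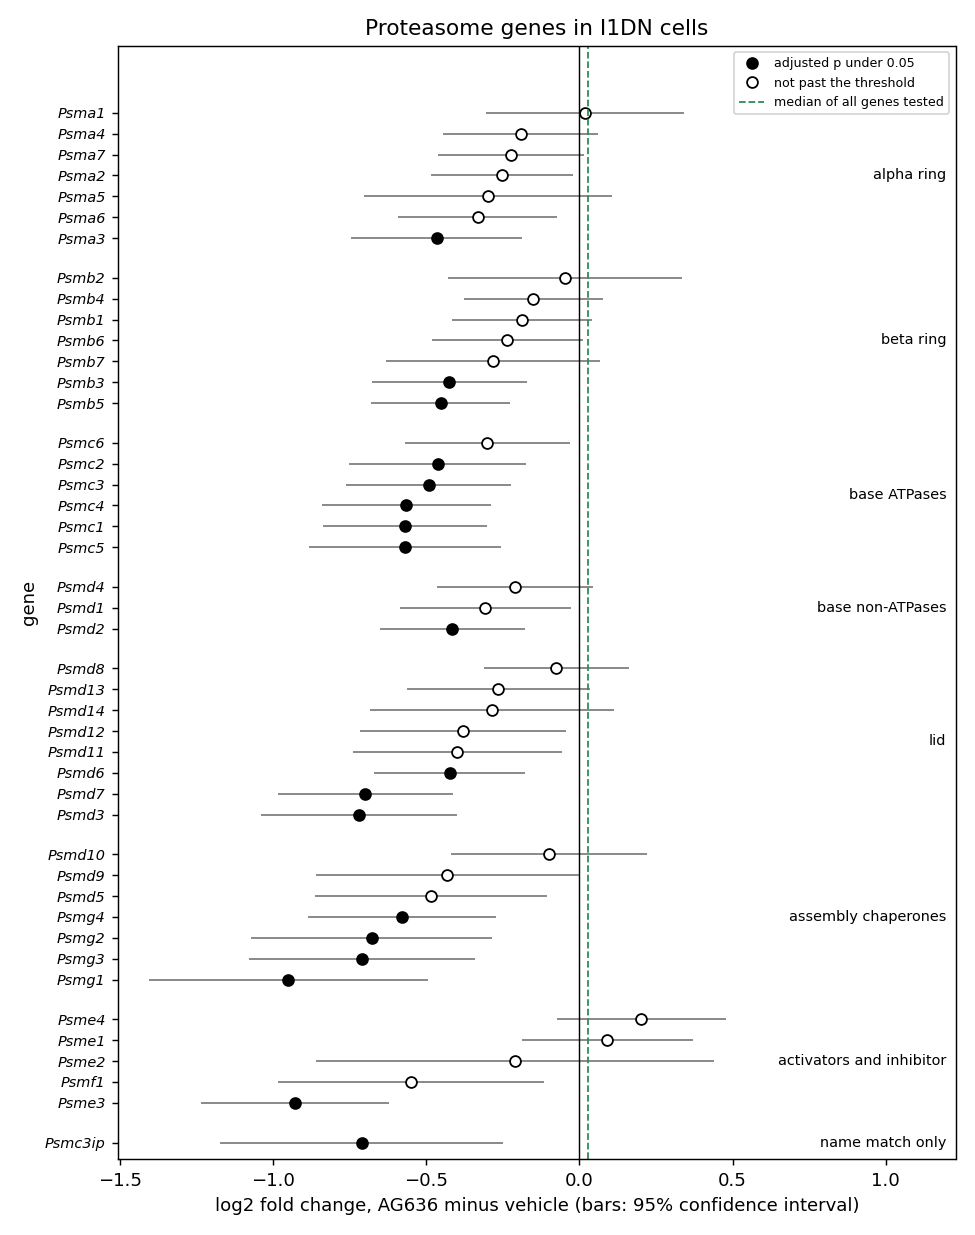
Log2 fold change (AG636 minus vehicle, 3 mice each) of the 44 members tested, *Psmc3ip* included, by role. Bars are 95% confidence intervals, filled circles mark the 18 genes with an adjusted p under 0.05, and the dashed line is the median of all genes tested at 0.03. All filled circles lie to the left of 0, and *Psmg1* and *Psme3* lie farthest to the left.

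Promoter sequence is shown for the members whose windows hold the letters of the antioxidant response element, since transcription factors of the NRF family are known to drive proteasome genes through this element. RefSeq windows (GRCm38.p6) from 250 bases before to 50 bases after the start were given for 38 of the 46 members, 14 of them called lower. On either strand the core TGACNNNGC was found in 6 of these 38 members (15.8%), beside 17.1% of 8424 tested genes with a window. Of the 6, only *Psmb5* was called lower. The others were *Psmb6*, *Psmc6*, *Psmd9*, *Psmd12* and *Psme4*. Stretches of 5 of the 6 follow, read 5′ to 3′ on the strand of the gene, with the match in capitals.
Psmb5, chr14:54618009-54618067, minus strand: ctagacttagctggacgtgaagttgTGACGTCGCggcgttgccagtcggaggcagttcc
Psmb6, chr11:70525323-70525356, plus strand: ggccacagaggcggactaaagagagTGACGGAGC
Psmd9, chr5:123228134-123228189, plus strand: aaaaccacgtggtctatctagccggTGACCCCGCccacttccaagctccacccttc
Psmc6, chr14:45329574-45329630, plus strand: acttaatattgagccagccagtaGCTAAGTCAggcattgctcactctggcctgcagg
Psmd12, chr11:107479278-107479314, plus strand: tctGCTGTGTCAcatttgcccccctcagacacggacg
The match lies on the gene's own strand in *Psmb5*, *Psmb6* and *Psmd9* and on the opposite strand in *Psmc6* and *Psmd12*. It begins 47 bases before the start in *Psmb5* and 9 bases before it in *Psmb6*.

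Of 3 other motifs, the YY1 core GCCATNTT was found in 6 of 38 members (15.8%) and in 11.0% of the tested genes. *Psmb5* and *Psmc5* were the called members among them. The NF-Y box CCAAT was found in 13 of 38 members (34.2%) and in 43.3% of the tested genes, and the E-box CACGTG, which reads the same on both strands, in 3 of 38 (7.89%) and 12.3%. Of the 14 called members with a window, 6 held the NF-Y box, 2 the YY1 core, 1 the antioxidant core and 1 the E-box. In 0 of the 38 members did matches of different motifs overlap. The match to the YY1 core nearest before the start of *Psmb5* lies on the opposite strand and begins 91 bases before the start, and that of the alpha ring gene *Psma4*, which was not called, begins 47 bases before it. Both are printed because 1 gene was called and the other was not.
Psmb5, chr14:54618054-54618111, minus strand: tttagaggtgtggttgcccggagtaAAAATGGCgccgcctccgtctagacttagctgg
Psma4, chr9:54950787-54950844, plus strand: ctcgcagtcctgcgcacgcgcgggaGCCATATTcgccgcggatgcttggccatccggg
These matches are descriptions of letters in the windows and were not tested for binding.

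In the alpha ring, which forms the outer rings of the core and the gate for substrates, 1 of 7 genes tested was called lower. This share of 14.3% lay near the 11.0% of all genes tested, and the median log2 fold change was -0.25. The called gene was *Psma3* (chr12:70974621-70996347), which had 348, 346 and 291 CPM with vehicle and 244, 258 and 211 CPM with AG636. These groups did not overlap, and the log2 fold change was -0.46 (SE 0.13, adjusted p = 0.0281). The call was lost without AG636 replicate 1, AG636 replicate 3, vehicle replicate 1 or vehicle replicate 2, with an adjusted p of up to 0.105. *Psma2*, *Psma4*, *Psma6* and *Psma7* were also lower in all 3 AG636 samples than in any vehicle sample. They had log2 fold changes between -0.33 and -0.19 and adjusted p-values between 0.0661 and 0.249, and *Psma6* passed without AG636 replicate 2. With *Psma3*, 5 of the 7 genes were lower without overlap, beside 20.6% of all genes tested. *Psma1* had a log2 fold change of 0.02 (adjusted p = 0.940), which was -0.0067 without the filter on low counts. Its AG636 samples, at 213, 205 and 197 CPM, lay within the vehicle range of 161 to 235 CPM.

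The beta ring carries the proteolytic sites, and 2 of its 7 constitutive genes were called lower, with a median of -0.23. This was 28.6%, beside 11.0% of all genes tested. *Psmb5* (chr14:54614119-54618022) encodes the chymotrypsin-like subunit, whose promoter stretch is printed above. It had 308, 324 and 311 CPM with vehicle and 230, 230 and 229 CPM with AG636. The spread within each group was small beside the gap between them, and the log2 fold change was -0.45 (SE 0.10, adjusted p = 0.0146). *Psmb3* (chr11:97703399-97713500), a subunit without proteolytic activity, had 264, 292 and 252 CPM with vehicle and 204, 211 and 188 CPM with AG636. The groups did not overlap, with a log2 fold change of -0.42 (SE 0.11, adjusted p = 0.0270). The call of *Psmb5* was lost without AG636 replicate 1 or 3 (adjusted p up to 0.0556), and that of *Psmb3* without these, without vehicle replicate 1 or 2 (up to 0.101) and with library size alone.

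The other catalytic subunits did not pass the threshold. *Psmb6* (chr11:70525367-70527858), the caspase-like subunit, had 255, 295 and 256 CPM with vehicle and 232, 226 and 227 CPM with AG636, without overlap. Its log2 fold change was -0.23 with a 95% interval from -0.48 to 0.01 (adjusted p = 0.151). *Psmb7* (chr2:38588036-38644087), the trypsin-like subunit, had 182, 144 and 152 CPM with vehicle and 133, 154 and 107 CPM with AG636, so that AG636 replicate 2 lay within the vehicle range. A log2 fold change of -0.28 was fitted with an interval from -0.63 to 0.07 (adjusted p = 0.220). The interval of *Psmb5* ran from -0.68 to -0.23 and overlapped both, and the difference between the 3 catalytic genes was not tested. *Psmb1*, *Psmb2* and *Psmb4* had log2 fold changes of -0.19, -0.05 and -0.15, and that of *Psmb2* was 0.042 with library size alone.

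In the base of the regulatory particle, 6 of 9 members (66.7%) were called lower, beside 11.0% of all genes tested, with a median of -0.46. Its 6 ATPases, *Psmc1* to *Psmc6*, form 1 ring, and all 6 were lower in every AG636 sample than in any vehicle sample. Of all genes tested, 20.6% lay lower in this way. Of the 6 ATPase genes, 5 passed the threshold. *Psmc1* (chr12:100110154-100123405) had 343, 383 and 303 CPM with vehicle and 232, 242 and 220 CPM with AG636, and the log2 fold change was -0.57 (SE 0.12, adjusted p = 0.0121). *Psmc5* (chr11:106256154-106263120) had 72.4, 89.2 and 91.7 CPM with vehicle and 61.6, 55.9 and 53.2 CPM with AG636. Its vehicle replicate 1 lay closest to the AG636 group, and the log2 fold change was -0.57 (SE 0.14, adjusted p = 0.0205). *Psmc4* (chr7:28041707-28050101) had 182, 189 and 163 CPM with vehicle and 133, 112 and 117 CPM with AG636, a log2 fold change of -0.56 (SE 0.12, adjusted p = 0.0135).

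*Psmc3* (chr2:91054009-91066369) had 316, 363 and 304 CPM with vehicle and 257, 222 and 221 CPM with AG636, with a log2 fold change of -0.49 (SE 0.12, adjusted p = 0.0202). *Psmc2* (chr5:21785283-21803787) had 246, 210 and 205 CPM with vehicle and 172, 168 and 140 CPM with AG636, and its log2 fold change was -0.46 (SE 0.13, adjusted p = 0.0319). *Psmc6* did not pass, with 152, 160 and 161 CPM with vehicle and 133, 138 and 113 CPM with AG636, a log2 fold change of -0.30 (95% interval -0.57 to -0.03, adjusted p = 0.0997). The ATPase genes thus lay between -0.57 and -0.30, and the intervals of all 6 overlapped. Without AG636 replicate 3 none of these 5 ATPase genes passed, with adjusted p-values between 0.0520 for *Psmc1* and 0.118 for *Psmc2*. The calls of *Psmc3*, *Psmc4* and *Psmc5* were also lost without vehicle replicate 2, and that of *Psmc2* without vehicle replicate 1 or 2, without AG636 replicate 1 and with library size alone.

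Of the non-ATPase genes of the base, *Psmd2* (chr16:20651652-20663414) was called lower. *Psmd2* encodes a large scaffold that docks ubiquitin-binding factors, and it had 316, 321 and 299 CPM with vehicle and 223, 248 and 231 CPM with AG636. The groups were apart by a log2 fold change of -0.41 (SE 0.11, adjusted p = 0.0237). The call was lost with library size alone and without vehicle replicate 1 or 2 or AG636 replicate 1 or 3 (adjusted p up to 0.0847). *Psmd1*, the other scaffold, had a log2 fold change of -0.31 (adjusted p = 0.104) without overlap of the groups. *Psmd4*, a receptor for ubiquitin chains, had one of -0.21 (adjusted p = 0.213), and its groups overlapped.

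In the lid, 3 of 8 members (37.5%) were called lower, beside 11.0% of all genes tested, and the median was -0.39. Lower without overlap of the groups were 5 of the 8, beside 20.6% of all genes tested. The lid gene *Sem1*, which the symbol rule leaves out, is given further below. *Psmd3* (chr11:98682554-98695979), a structural subunit, had 549, 472 and 404 CPM with vehicle and 284, 327 and 255 CPM with AG636. Its log2 fold change was -0.72 (SE 0.14, adjusted p = 0.010), the lowest of the lid and base members. *Psmd7* (chr8:107580381-107588464), which pairs with the deubiquitinase *Psmd14* in the particle, had 541, 527 and 430 CPM with vehicle and 310, 336 and 278 CPM with AG636, and the log2 fold change was -0.70 (SE 0.13, adjusted p = 0.0072). Both passed the threshold in each leave-one-out fit, with adjusted p-values of at most 0.0454 and 0.0358.

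*Psmd6* (chr14:14112174-14120984) was tight within groups, with 132, 129 and 135 CPM with vehicle and 97.1, 102 and 95.9 CPM with AG636. Its log2 fold change was -0.42 (SE 0.11, adjusted p = 0.0250), and the call was lost with library size alone and without vehicle replicate 1 or 2 or AG636 replicate 1 or 3 (adjusted p up to 0.0877). *Psmd14* (chr2:61711694-61800376), the subunit that cuts the ubiquitin chain from the substrate, had 268, 179 and 281 CPM with vehicle and 183, 231 and 182 CPM with AG636. Vehicle replicate 2 lay below all 3 AG636 samples, and the log2 fold change of -0.29 had an interval from -0.68 to 0.11 (adjusted p = 0.275). *Psmd11* and *Psmd12* had log2 fold changes of -0.40 and -0.38 (adjusted p = 0.0881 and 0.0977) without overlap, and *Psmd11* passed without the filter on low counts (0.0470). *Psmd13* and *Psmd8* had -0.26 and -0.08 with overlap, and *Psmd8* had 0.013 with library size alone. Exons of *Psmd13* overlap those of *Sirt3* on the opposite strand, so its count is uncertain.

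Assembly chaperones had the lowest median of the groups, -0.58, with 4 of 7 genes (57.1%) called lower, beside 11.0% of all genes tested. The 4 were *Psmg1* to *Psmg4*, whose products form pairs that build the alpha ring. *Psmg1* (chr16:95979933-95990960) had 72.03, 42.4 and 55.2 CPM with vehicle and 27.8, 32.8 and 27.0 CPM with AG636. Vehicle replicate 1 was the highest and the groups did not overlap, and the log2 fold change was -0.95 (SE 0.20, adjusted p = 0.0128), the lowest of all members. *Psmg2* (chr18:67641599-67654162), the partner of *Psmg1*, had 149, 91.6 and 126 CPM with vehicle and 68.8, 77.5 and 82.1 CPM with AG636. Fitted over both groups, the log2 fold change was -0.68 (SE 0.18, adjusted p = 0.0250).

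The second pair is *Psmg3* and *Psmg4*. *Psmg3* (chr5:139823592-139826885) had 198, 135 and 139 CPM with vehicle and 91.3, 107 and 90.6 CPM with AG636, a log2 fold change of -0.71 (SE 0.17, adjusted p = 0.0168). *Psmg4* (chr13:34162964-34178173) had 88.6, 82.1 and 86.5 CPM with vehicle and 51.4, 66.6 and 54.2 CPM with AG636, a log2 fold change of -0.58 (SE 0.14, adjusted p = 0.0183). All 4 genes lay lower without overlap of the groups, beside 20.6% of all genes tested. The 4 calls were lost without AG636 replicate 3 (adjusted p between 0.0538 and 0.0714). The calls of *Psmg2*, *Psmg3* and *Psmg4* were also lost without AG636 replicate 1 (up to 0.0858 for *Psmg2*), and that of *Psmg2* without vehicle replicate 1. *Psmd5*, *Psmd9* and *Psmd10*, chaperones of the base, had log2 fold changes of -0.48, -0.43 and -0.10 and adjusted p-values of 0.0678, 0.133 and 0.647, and 0 of 3 passed with edgeR, DESeq2 or limma-voom (2 had an unadjusted p under 0.05 in edgeR). *Psmd5* passed in edgeR without the filter on low counts (adjusted p = 0.0132). Whether the chaperones of the alpha ring differ from those of the base was not tested.

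**Figure D2:**
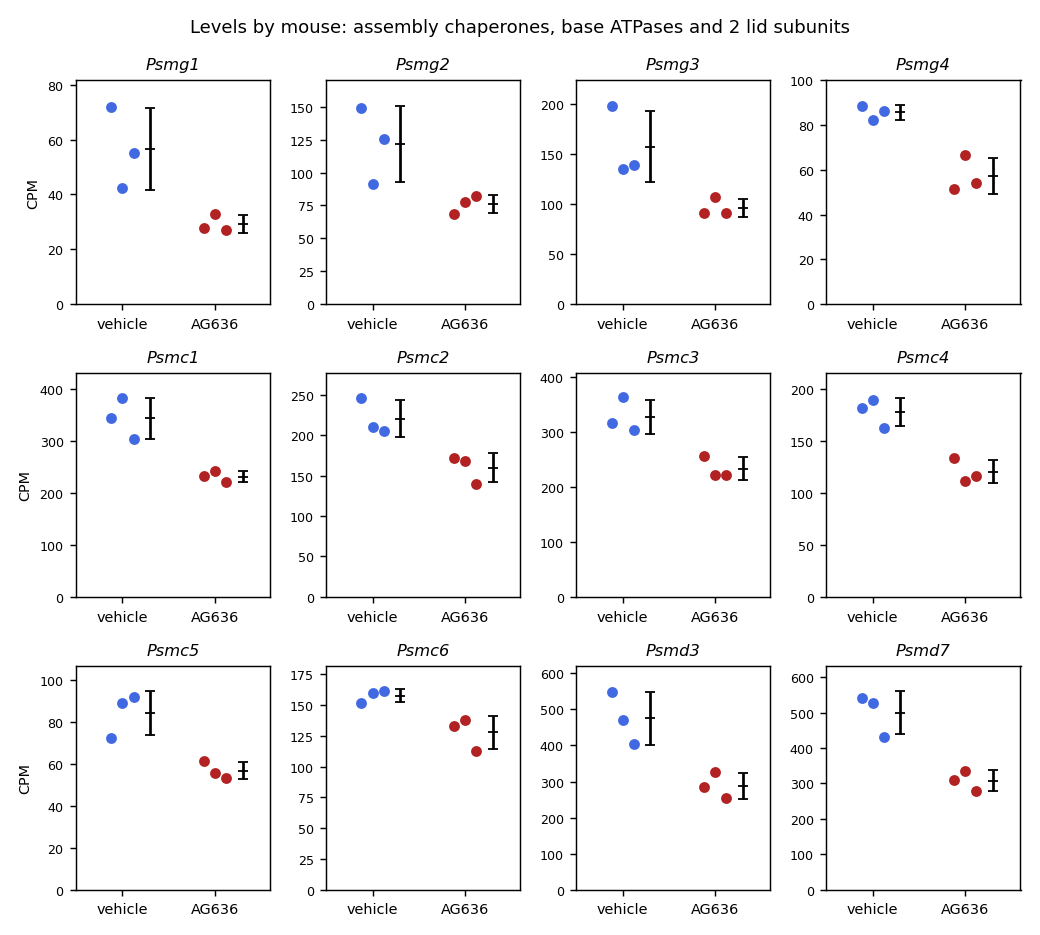
Levels in CPM of the 4 alpha ring chaperones, the 6 base ATPases and the lid genes *Psmd3* and *Psmd7* in each of the 3 vehicle and 3 AG636 mice, with mean and SD beside the points. The axes start at 0 and differ between genes, and in all 12 genes every vehicle point lies above every AG636 point.

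Activators cap the core in place of the regulatory particle, and 1 of the 5 activator and inhibitor genes was called lower. This was 20%, beside 11.0% of all genes tested. *Psme3* (chr11:101316213-101323537) encodes the nuclear activator PA28 gamma, which works without ubiquitin and ATP. It had 237, 199 and 184 CPM with vehicle and 119, 109 and 96.8 CPM with AG636, and the groups did not overlap. Its log2 fold change was -0.93 (SE 0.14, adjusted p = 0.0040), the lowest adjusted p of the 44 members, and it passed in each leave-one-out fit (adjusted p at most 0.0206). *Psme1* and *Psme2*, the subunits of the interferon-inducible activator, had log2 fold changes of 0.09 and -0.21 (adjusted p = 0.632 and 0.635). Leaving out single samples turned the signs of both, and reads of *Psme2* may be shared with its copy *Psme2b*.

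*Psme4*, which encodes the large activator PA200, was the member with the highest log2 fold change. It had 69.7, 72.9 and 76.9 CPM with vehicle and 81.3, 91.6 and 79.5 CPM with AG636. All AG636 samples lay above the vehicle samples, but the log2 fold change of 0.20 did not pass (95% interval -0.07 to 0.48, adjusted p = 0.265). *Psmf1*, an inhibitor of the core, had a log2 fold change of -0.55 with a 95% interval from -0.98 to -0.11 (adjusted p = 0.0695). It passed the threshold with DESeq2, without the filter on low counts, and without AG636 replicate 2 or vehicle replicate 3. *Psmc3ip* (chr11:101091823-101095436), the factor named after a binding partner, had 22.5, 18.8 and 21.5 CPM with vehicle and 15.7, 10.9 and 11.7 CPM with AG636. Its log2 fold change was -0.71 (SE 0.21, adjusted p = 0.0363), but its exons overlap *Mlx* on the opposite strand over 385 bases, so its count is uncertain. The call was lost with library size alone and in 5 of the 6 leave-one-out fits (adjusted p up to 0.119), and held only without AG636 replicate 1.

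The groups of members were next set side by side. The core had 3 of 14 genes called lower (21.4%) and a median of -0.24. Base and lid together had 9 of 17 called lower (52.9%) and a median of -0.41. Among all genes tested, 11.0% were called lower. Summed over its genes, the core had 4404, 4239 and 4356 CPM with vehicle and 3666, 3788 and 3466 CPM with AG636, and the mean with AG636 was 0.840 of that with vehicle. The same ratio of means was 0.758 for the base, 0.739 for the lid and 0.614 for *Psmg1* to *Psmg4*. Within each mouse, the counts of base and lid divided by those of the core gave 1.07, 1.08 and 0.988 with vehicle and 0.935, 0.952 and 0.913 with AG636. This ratio does not depend on library scaling, and every AG636 value lay below every vehicle value. The ratio of *Psmg1* to *Psmg4* over the core was 0.115, 0.0827 and 0.0933 with vehicle and 0.0653, 0.0748 and 0.0733 with AG636, also without overlap. Base and lid hold members only in these sums and ratios. They leave out the base gene *Adrm1* (log2 fold change -0.88) and the lid gene *Sem1* (0.44), which went the other way. Ratios that include these genes were not formed. The ratios shown were formed after the values of the groups were seen and were not tested.

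As a comparison, 3 other large complexes were read in the same fit, where 11.0% of all genes tested were called lower and 10.3% higher. The CCT chaperonin, a ring that folds actin and tubulin, had 8 of 8 genes called lower with a median of -0.68. The COP9 signalosome, whose subunits are related to those of the lid, had 2 of 10 (20%) with a median of -0.27. The V-ATPase, the proton pump of lysosomes, had 0 of 16 called in either direction with edgeR, DESeq2 or limma-voom (3 had an unadjusted p under 0.05 in edgeR) and a median of 0.04. The share of called proteasome genes thus lay between those of these complexes.

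**Figure D3:**
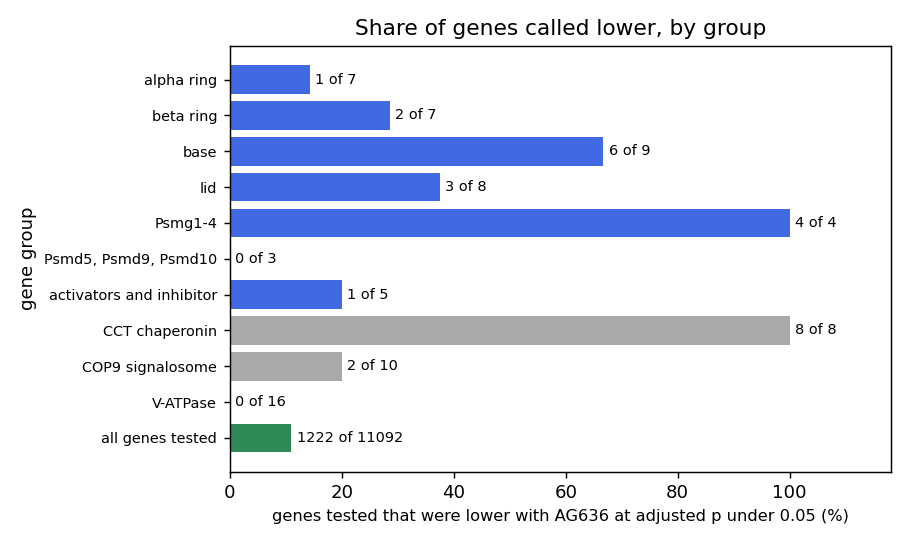
Share (%) of the tested genes of each group that were lower with AG636 at an adjusted p under 0.05, with the number called beside each bar. Blue bars are groups of proteasome genes, grey bars other complexes, and the green bar all genes tested (11.0%). The bars of *Psmg1* to *Psmg4* and of the CCT chaperonin reach the full length, and *Psmd5*, *Psmd9* and *Psmd10* and the V-ATPase have none.

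Genes that work with the proteasome but do not bear its name were also read from lists. Of 10 non-Psm subunits and maturation factors, 4 were called lower and 0 higher, beside 11.0% lower and 10.3% higher of all genes tested. *Adrm1*, a ubiquitin receptor of the base, had 31.5 ± 2.94 CPM (SD, n = 3) with vehicle and 17.2 ± 1.39 CPM (SD, n = 3) with AG636, a log2 fold change of -0.88 (SE 0.17, adjusted p = 0.0089). The others were *Txnl1*, a thioredoxin-like protein of the regulatory particle, at -0.69 (adjusted p = 0.0066), and the deubiquitinases *Uchl5* at -0.52 (0.0489) and *Usp14* at -0.43 (0.0265). *Adrm1* and *Txnl1* passed in each leave-one-out fit, and *Uchl5* and *Usp14* did not (adjusted p up to 0.165 and 0.102). *Pomp*, which matures the beta ring, had 451 ± 24.9 CPM with vehicle and 416 ± 37.5 CPM with AG636 (SD, n = 3), a log2 fold change of -0.12 (adjusted p = 0.470). *Sem1*, a small lid subunit, lay higher in all 3 AG636 samples at 0.44 (adjusted p = 0.101), and it passed without the filter on low counts (0.0258) and without vehicle replicate 3 (0.0296).

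Of the 5 regulators of proteasome genes tested, 0 were called with edgeR, DESeq2 or limma-voom, and 0 had an unadjusted p under 0.05 in edgeR. The shares of all genes called in edgeR were 11.0% lower and 10.3% higher. *Nfe2l1* and *Nfe2l2*, the factors that bind the antioxidant element shown above, had log2 fold changes of -0.19 and -0.20 (adjusted p = 0.353 and 0.306). Among ubiquitin and E1 genes, *Uba6* was called lower at -0.41 and *Rps27a* at -0.38 (adjusted p = 0.0347 and 0.0351). *Ubb* went from 667 ± 70.1 CPM with vehicle to 836 ± 20.02 CPM with AG636 (SD, n = 3), a log2 fold change of 0.33 (adjusted p = 0.0576) without overlap. *Ubb* passed as higher with limma-voom (0.0497), library size alone (0.0248) and thinned counts (0.0443). The coding sequences of ubiquitin genes are nearly identical and how reads with several matches were counted is not given in the sources used here, so their counts are uncertain. Among shuttle and segregase genes, which bring ubiquitinated proteins to the proteasome, *Faf1* was called lower at -0.49, *Rad23b* at -0.48 and *Ubqln1* at -0.41 (adjusted p = 0.0392, 0.0168 and 0.0282). *Vcp*, the ATPase that extracts such proteins, had -0.27 (adjusted p = 0.0692). Each of these 5 calls was lost in at least 1 leave-one-out fit, with adjusted p-values of up to 0.132.

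The immunoproteasome genes encode alternative catalytic subunits that replace those of *Psmb5*, *Psmb6* and *Psmb7*. Of the 3 tested, 0 passed in either direction with edgeR, DESeq2 or limma-voom (1 had an unadjusted p under 0.05 in edgeR). The edgeR fit called 11.0% of all genes tested lower and 10.3% higher. *Psmb8*, the counterpart of *Psmb5*, had 262 ± 21.3 CPM with vehicle and 311 ± 43.4 CPM with AG636 (SD, n = 3), a log2 fold change of 0.25 (adjusted p = 0.194). *Psmb9* had 0.36 (adjusted p = 0.170) and *Psmb10* -0.35 (adjusted p = 0.0972). Without AG636 replicate 2, *Psmb10* passed the threshold at -0.47. The ratio of *Psmb8* to *Psmb5* counts within a mouse was 0.782, 0.808 and 0.913 with vehicle and 1.19, 1.56 and 1.32 with AG636, without overlap. Its log2 difference was 0.70, with p = 0.1 in a two-sided exact permutation test, the smallest p that 3 against 3 allows, and 0.3 after Benjamini-Hochberg adjustment over the 3 ratios. The ratio of *Psmb9* to *Psmb6* was 0.839, 0.483 and 0.644 with vehicle and 0.816, 1.20 and 0.921 with AG636, which overlap (log2 difference 0.60, exact permutation p = 0.2, adjusted 0.3). The ratio of *Psmb10* to *Psmb7* was 1.05, 1.40 and 1.09 with vehicle and 1.01, 1.11 and 1.25 with AG636 (log2 difference -0.06, exact permutation p = 0.7, adjusted 0.7). The ratios were formed after the values of these genes were seen, and no difference between them was tested.

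**Figure D4:**
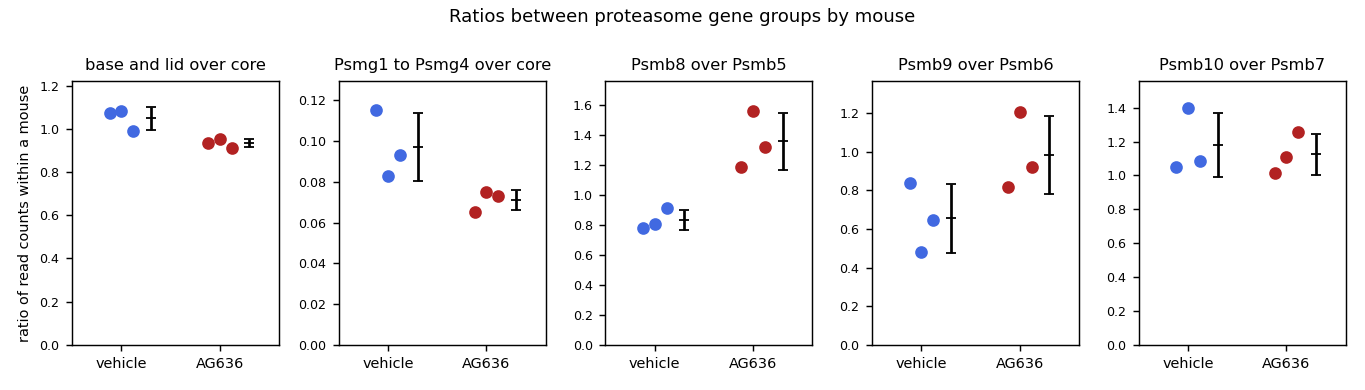
Ratios of read counts within each of the 3 vehicle and 3 AG636 mice, with mean and SD beside the points and axes that start at 0. The groups do not overlap for base and lid over core, for *Psmg1* to *Psmg4* over core and for *Psmb8* over *Psmb5* (0.782 to 0.913 with vehicle and 1.19 to 1.56 with AG636), and they overlap for the other pairs.

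Some markers of granulocytes and of monocytes and macrophages were higher with AG636 in the same samples. Of 10 granulocyte markers, such as *S100a8* and *Ngp*, 10 were at a higher fitted level and 7 were called higher, and their summed level was 1042 to 2377 CPM with vehicle and 2902 to 5896 CPM with AG636. Of 9 monocyte and macrophage markers tested, 4 were called higher, with sums of 82.0 to 133 CPM and 201 to 299 CPM. DESeq2 called 4 of these markers higher and limma-voom 2. Of 10 erythroid markers, 4 were called lower, with sums of 2323 to 5982 CPM and 2216 to 3936 CPM, which overlap. DESeq2 and limma-voom each called 3 erythroid markers lower. Over all genes tested, 10.3% were called higher and 11.0% lower. Lymphocyte markers had 0 of 3 tested called with any of the 3 tools (0 at an unadjusted p under 0.05) and sums of 205 to 356 CPM and 299 to 522 CPM, most of it *Nkg7*, and immature AML markers had 1 of 9 called higher and sums of 2598 to 5192 CPM and 2152 to 5472 CPM. No marker of these lists was at 0 counts in all samples. In bulk samples, fewer cells of a type and less RNA per cell cannot be told apart, and the part of these markers in the proteasome values was not tested.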

How the data were processed

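The data are from sorted I1DN cells of 6 mice, 3 given vehicle and 3 given AG636, grouped by the labels. The authors deposited one raw count per gene and sample, without normalization. Per the submitters' processing notes and the study's methods, cutadapt was used for trimming, HISAT2 2.0.4 for mapping to mm10 and featureCounts of the Subread package for counting. The versions of cutadapt and Subread differ between these sources. The annotation release, the strand setting and the handling of reads with several matches are not given in the sources used here. The deposited gene length was not used, and the number of unused sample columns was 0. No molecular identifiers were described, so floors of 3 counts cover counting error only.

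GENCODE M21 gave symbols to 54809 of the 54838 identifiers (99.9%), 98.7% with the deposited start and end, as for all 46 members. Coordinates are those of mm10. Besides the pairs named in the text, exons of *Psmb7*, *Psmc3*, *Psme1* and *Psma4* overlap genes with fewer counts on the opposite strand. Exons of *Psmd9* (over 1849 bases), *Psmd1*, *Psmd3* and *Psma5* overlap genes with 0 counts on the opposite strand. On the same strand, exons of *Psmg3* (280 bases), *Psmd1* (154 bases) and *Psmb5* (109 bases) overlap genes with 0 counts, so their counts are uncertain.

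The counts were fitted with edgeR 4.0.16 (R 4.3.3). Low genes were removed with filterByExpr (at least 10 counts in enough samples, 15 in total), library sizes were scaled by TMM, and groups were compared by the quasi-likelihood test. A Benjamini-Hochberg adjusted p under 0.05 over all genes tested counts as a call. Standard errors (SE) of log2 fold changes, the absolute value divided by the root of the F statistic, had a median of 0.13 over members and 0.20 over all genes. The steps were tested on simulated data. Within groups, chi-square per degree of freedom between samples was 6.76 to 16.0, above sampling noise for every pair, and each mouse entered as 1 replicate.

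The members and all lists were chosen with earlier results of these data known. Any member could be named, with values per sample for catalytic subunits, *Psmd14*, *Psmg1* to *Psmg4*, called members and the largest change in each group. Of the other lists, called genes could be named. *Pomp*, *Sem1*, *Ubb*, *Vcp*, *Nfe2l1*, *Nfe2l2*, the immunoproteasome genes and the values per sample of *Psma1*, *Psmc6* and *Psme4* were added after their values were seen. *Ddi1* (0 counts) and *Psmb11* (1 count) were not tested. Some genes of the ubiquitin and shuttle lists are not reported here. Alternatives were DESeq2 1.42.0, limma-voom (limma 3.58.1, the tool the study names), median-of-ratios size factors, library size alone, a minimum of 10 counts per sample, no filter on low counts, the replicate number as a block, thinning to the smallest total, leaving out each sample and an adjusted p under 0.01. The ratios and leaving out *Psmc3ip* were added after seeing the data.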

Additional observations from a re-analysis of the deposited data

How the results depend on the processing

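The number of members called lower was 18 with limma-voom, with median-of-ratios size factors, with a minimum of 10 counts per sample, after thinning and with the replicate block, and each of these shared all 18 members. It was 19 with DESeq2, which added *Psmf1*, 21 without the filter, 13 with library size alone (8.23% of all genes), 17 without *Psmc3ip* and 2 at an adjusted p under 0.01 (*Psme3* and *Psmd7*, beside 2.93% of all genes). Leaving out 1 sample gave 3 to 19. No alternative called a member higher. The median log2 fold change of all members was -0.45 to -0.27 in the leave-one-out fits, that of the lid -0.46 to -0.26, that of assembly chaperones -0.69 to -0.52 and that of activators and inhibitor -0.50 to 0.053, which was -0.12 with limma-voom. Signs turned for *Psmb2* (0.042) and *Psmd8* (0.013) with library size alone and for *Psma1* (-0.0067) without the filter. In the leave-one-out fits they also turned for *Psma1* (-0.13 to 0.12), *Psmb2* (-0.20 to 0.061), *Psme1* (-0.020 to 0.14), *Psme2* (-0.50 to 0.053) and the ratio of *Psmb10* to *Psmb7* (-0.14 to 0.069). The cause was not tested. Over the 44 members and 14 alternatives, 552 single-gene results kept direction and side of the threshold, 47 fell below it, 7 rose past it and 10 changed sign. The labels share only replicate numbers between different mice, and correlations of deviations for equal numbers were -0.06, -0.18 and 0.22, with 1 of 3 numbers correlating best with itself. The replicate block changed no member's call and lost those of *Uba6*, *Faf1* and *Ubqln1*.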
